A study of Homo sapiens with 6 samples.

Results

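Cathepsins, the proteases of the lysosome, and cystatins, their inhibitors, were followed in PC3 cells, an established human prostate cancer line, through 10 genes: CTSA, CTSB, CTSC, CTSD, CTSH, CTSL, CTSS, CTSZ, CSTB and CST3. The members were chosen by family, from the probes whose gene symbol in the platform annotation is one of these names, and the choice was made with their levels and their differences between the groups already known. They have 15 probes of the 24526 on the array, or 10 genes of 16922 named genes. The 3 control arrays hold RNA of PC3 cells that express green fluorescent protein (GFP), and the other 3 hold RNA of PC3 cells that express the G protein-coupled receptor kinase GRK3. Both kinds of cells were kept in serum-containing RPMI with penicillin-streptomycin, and total RNA was hybridised to Illumina HumanRef-8 v3 BeadChips. The question of the series is which genes are regulated by GRK3. The promoter of each transgene, and whether a group is a pool or 1 clone, were not stated in the labels, so a difference between these cell populations and an action of GRK3 cannot be told apart.

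Cathepsins are made as inactive precursors, carried to the lysosome largely by mannose 6-phosphate receptors, and activated there at acid pH. Most of the family are cysteine proteases related to papain, whereas cathepsin D is an aspartic protease and cathepsin A a serine carboxypeptidase. Cystatins block the cysteine cathepsins that escape the lysosome, and in tumours secreted cathepsins are known for cleaving extracellular matrix.

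Mean signal per array was 1171 to 1387, and 13780 to 14363 probes per array had a detection p-value under 0.05, which ranks them above most negative controls. Background-corrected, quantile-normalized log2 values were compared at the 14130 probes that 3 or more of the 6 arrays detected. The mean correlation of an array with the others of its group was 0.9941 to 0.9960, and GRK3 replicate 1 had the lowest. That array also had the largest root mean square deviation from its group mean, 0.155 against 0.113 to 0.134 on the others. The labelled cell type was checked against epithelial markers, and all 6 probes of KRT8, KRT18, KRT19, EPCAM and CDH1 were detected on every array. Of 3 probes of luminal prostate genes, which PC3 cells are known to express weakly, KLK2 was detected on at least 1 array but not on all of either group, and KLK3 and TMPRSS2 on none. Of 14 leukocyte marker probes, 3 were detected on any array (AIF1, CD14 and LYZ), and PTPRC, CSF1R, CD163, ITGAM, TYROBP and CD3E were not. The summed level of the leukocyte list, on the linear scale after normalization, was 585 to 636 in the GFP group and 584 to 615 in the GRK3 group. Fibroblast markers had 4 of 9 probes detected, with summed levels of 514 to 531 and 547 to 556, and endothelial markers had 1 of 4, with 824 to 962 and 966 to 1030. Those detected were COL1A1, LUM, PDGFRA and PDGFRB in the first list and PECAM1 alone in the second. COL1A2, DCN, POSTN, CDH5, KDR and VWF were not detected. The sums of these last 2 lists were slightly higher in the GRK3 group, and their part in the results was not tested. The array's GRK3 probe had detection p-values of 0.104 to 0.262, none above background, and does not check the labels.

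Of the 15 member probes, 14 passed the detection filter, and the CTSS probe did not. CTSH, which encodes the aminopeptidase cathepsin H, was higher in the GRK3 cells at 1 of its 2 probes, and no other member probe passed the threshold, an adjusted p under 0.05. The cysteine cathepsin genes CTSL and CTSZ had the lowest differences, while CTSA, CTSC, CSTB and CST3 had differences from -0.12 to 0.24. In counts, 1 of the 14 tested member probes was higher, 0 were lower and 13 did not pass. Of all tested probes 0.573% passed, 0.375% higher and 0.198% lower, and because the genes were picked with this comparison in view nothing is read from the members' count. The median difference of the 14 probes was 0.01 and that of all tested probes -0.01, both GRK3 minus GFP on the log2 scale, and the members' median was -0.08 without GRK3 replicate 1. Whether replicate arrays stand for separate cultures is not in the labels, and the adjusted p-values then reflect only how much these arrays vary, which may be technical. In a culture, fewer cells of a kind and less RNA per cell cannot be told apart.

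**Figure D1:**
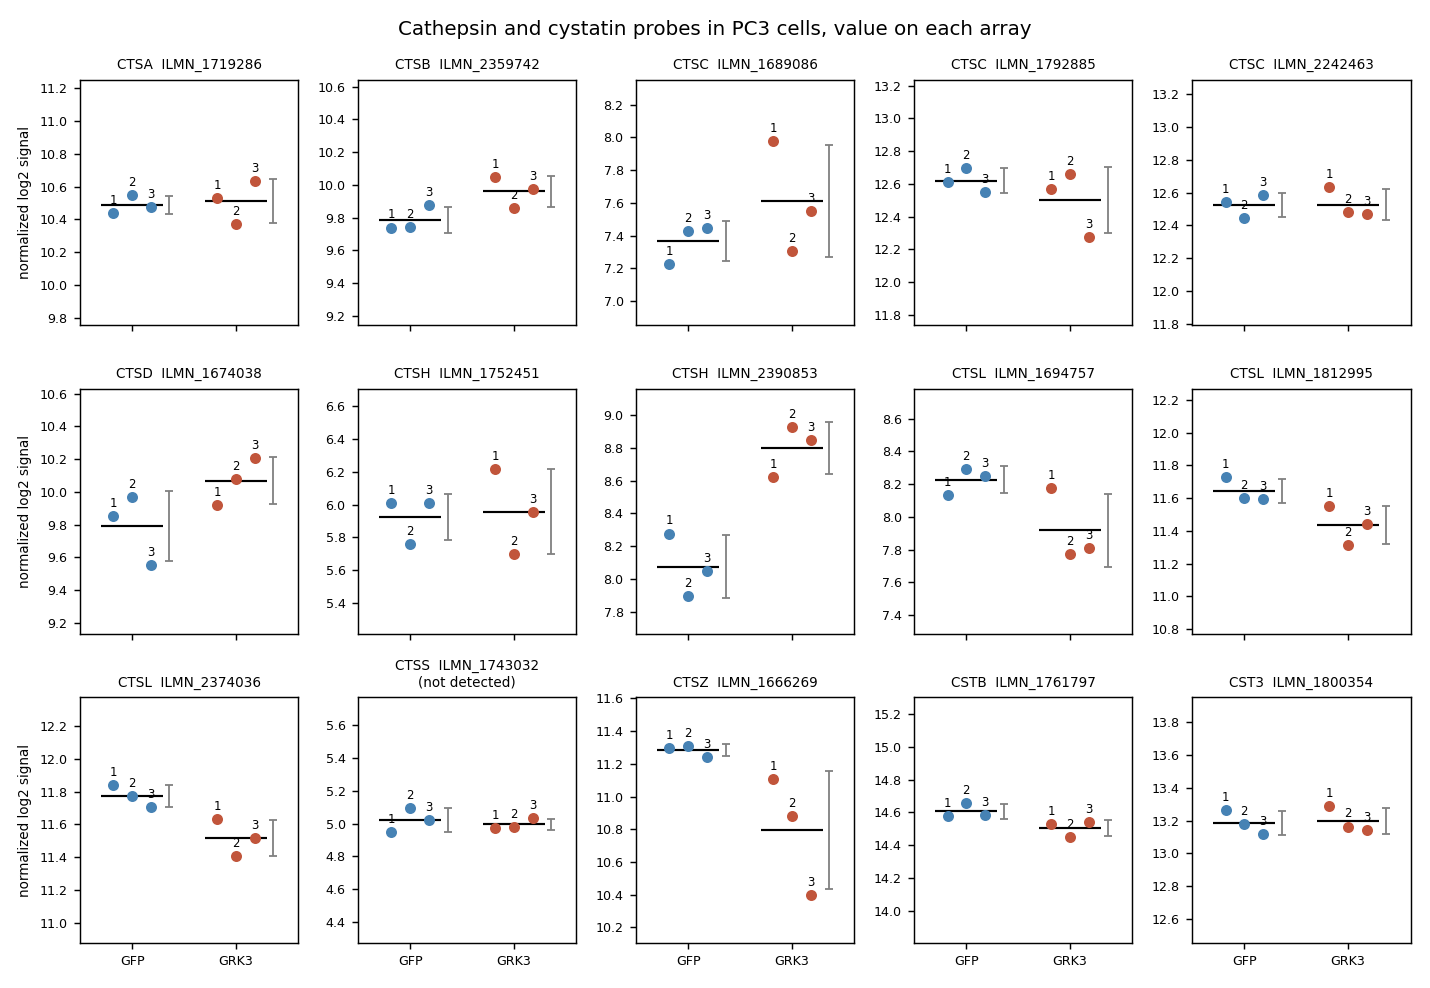
Normalized log2 signal of the 15 cathepsin and cystatin probes on each array (y axis), for the GFP and the GRK3 group (x axis). Points are arrays with their replicate number, black lines are group means and grey bars are the SD (n = 3), and every panel spans the same height. CTSH at probe ILMN_2390853 has its 3 GRK3 arrays, 8.62 to 8.93, above its 3 GFP arrays, 7.90 to 8.28, and CTSZ has its lowest value, 10.40, on GRK3 replicate 3.

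Cathepsin H removes residues from the amino end of a chain, and it also processes surfactant protein in the lung. In replicate order, at its brighter probe, ILMN_2390853, the normalized log2 values of CTSH were 8.28, 7.90 and 8.05 in the GFP group and 8.62, 8.93 and 8.85 in the GRK3 group. The groups did not overlap, and the lowest GRK3 array, replicate 1, exceeded the highest GFP array, also replicate 1. Before normalization the signals of this probe were 341, 313 and 350 in the GFP group and 442, 573 and 467 in the GRK3 group. Group means were 8.07 ± 0.19 and 8.80 ± 0.16 (SD, n = 3 each), a difference of 0.72 ± 0.12 (SE) with a 95% interval from 0.45 to 1.00, or 1.65-fold (limma adjusted p = 0.0404). The call ended when an array was left out in 4 of 6 cases, with a limma adjusted p of 0.189 without replicate 2 of GFP, 0.154 without replicate 3 of GFP, 0.167 without replicate 2 of GRK3 and 0.148 without replicate 3 of GRK3, although the difference stayed between 0.64 and 0.83 over all 6 runs with 1 array left out. It also ended with no detection filter, where more probes were tested and the difference was the same (limma adjusted p = 0.107).

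The other CTSH probe, ILMN_1752451, lay near background. Its signals were 112, 113 and 127 in the GFP group and 132, 110 and 110 in the GRK3 group, and it was detected on 3 GFP and 2 GRK3 arrays. Its log2 values were 6.01, 5.76 and 6.01 in the GFP group and 6.22, 5.70 and 5.95 in the GRK3 group, so the groups overlapped throughout. The difference was 0.03, with a 95% interval from -0.27 to 0.34 (limma adjusted p = 0.963). Both probes are tied to the same RefSeq transcript in the platform annotation, and their sequences were not used here, so the part of the transcript that each reads is not described.

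The named probes whose pattern was nearest to that of CTSH at ILMN_2390853 were those of PLA2G10, TFPI, CAPS, TP53INP1 and CD86. Likeness was the root mean square difference of log2 values over the 6 arrays after each probe was centred on its own mean. This distance takes in the GRK3 minus GFP difference, so probes near CTSH have a difference near its own by construction. The differences of these named probes ran from 0.59 to 0.82. Those of CAPS and TP53INP1 did not pass (limma adjusted p = 0.0948 and 0.0527). The distances were 0.043 for PLA2G10, 0.086 for TFPI, 0.088 for CAPS, 0.091 for TP53INP1 and 0.095 for CD86, against a median of 0.41 over all tested probes. In the GFP group PLA2G10 and TP53INP1 were dim, with log2 values of 5.88 to 6.38 and 5.57 to 5.78. These levels lie close to those of the second CTSH probe, which was near background. PLA2G10, which encodes a secreted phospholipase, had log2 values of 6.38, 5.88 and 6.04 in the GFP group and of 6.70, 7.01 and 6.89 in the GRK3 group. Like CTSH, it was lowest on GFP replicate 2 and highest on GRK3 replicate 2, a match for which it was chosen. Among the members the nearest were CTSD at 0.29 and CTSB at 0.33, and the farthest was CTSZ at 0.67. Unlike CTSH, CTSD was lowest on GFP replicate 3 and highest on GRK3 replicate 3. The second CTSH probe, at 0.43, was farther away than the median of all tested probes.

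Promoter windows of 7 of the 10 members were found in RefSeq (build GRCh38.p14, 250 bases before to 50 after the gene's start). The 3 shown belong to CTSH, the member with a call, to CTSD, the member gene at the smallest distance from it, and to CTSZ, the member with the lowest difference. Each is printed 5′ to 3′ on the gene's strand, and capitals mark the motifs found: the GC box GGGCGG, the E-box core CACGTG, the CCAAT box and the TATA box TATAAA, all searched on both strands. The windows are chr15:78944997-78945296 (minus strand) for CTSH, chr11:1763878-1764177 (minus strand) for CTSD and chr20:59007205-59007504 (minus strand) for CTSZ.
CTSH: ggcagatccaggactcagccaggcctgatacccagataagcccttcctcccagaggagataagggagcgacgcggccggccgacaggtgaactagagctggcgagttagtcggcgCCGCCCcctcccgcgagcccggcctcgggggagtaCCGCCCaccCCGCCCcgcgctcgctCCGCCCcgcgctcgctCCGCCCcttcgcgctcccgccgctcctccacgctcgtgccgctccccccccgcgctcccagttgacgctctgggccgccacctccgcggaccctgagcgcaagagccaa
CTSD: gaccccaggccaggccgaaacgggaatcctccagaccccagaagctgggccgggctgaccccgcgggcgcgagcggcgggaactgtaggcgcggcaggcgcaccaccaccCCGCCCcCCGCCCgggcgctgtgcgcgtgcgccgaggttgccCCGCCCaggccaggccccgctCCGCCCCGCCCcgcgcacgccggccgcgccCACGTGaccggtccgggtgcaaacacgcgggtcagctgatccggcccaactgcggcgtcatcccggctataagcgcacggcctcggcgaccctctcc
CTSZ: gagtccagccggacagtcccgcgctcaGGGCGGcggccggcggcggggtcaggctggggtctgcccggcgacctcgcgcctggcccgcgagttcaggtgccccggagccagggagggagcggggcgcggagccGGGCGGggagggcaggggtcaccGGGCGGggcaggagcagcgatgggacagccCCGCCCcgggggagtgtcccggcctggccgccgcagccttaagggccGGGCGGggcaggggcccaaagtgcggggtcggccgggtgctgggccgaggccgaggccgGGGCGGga
The CTSH window is 73.3% G or C and holds 5 GC boxes, between positions -135 and -54 from the start. GC boxes numbered 5 in the CTSD window, 2 of which share the base at -72, and 6 in the CTSZ window. Each of the 7 member windows holds at least 1 GC box, as do 45% of the 35116 windows in the RefSeq table. The E-box core, the centre of the element bound by the lysosomal regulators TFEB and TFE3, was found once in CTSD, at -47 to -42, and at 2 places in CTSA, at -42 to -37 and at -25 to -20. It was present in 7.26% of all windows. With the base T before it, as TCACGTG, which overlaps the core by design, it was again found among the members in CTSA and CTSD, and in 3.71% of all windows. The windows of CTSC, CTSH, CTSL, CTSZ and CST3 do not contain these letters. The CCAAT box was found in CTSC and CTSL (34.6% of all windows) and the TATA box in none of the 7 (11.5%).

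Among the papain-like endopeptidases, CTSL had negative differences at each of its 3 probes, none of which passed. Cathepsin L is a broad endopeptidase of the lysosome. At ILMN_2374036 the log2 values were 11.84, 11.77 and 11.71 in the GFP group and 11.63, 11.41 and 11.52 in the GRK3 group, with no overlap. The difference was -0.26 ± 0.09 (SE), with a 95% interval from -0.47 to -0.04 (limma adjusted p = 0.326). At ILMN_1812995 it was -0.21, again with no overlap, and at the dimmer ILMN_1694757 it was -0.31, where GRK3 replicate 1 at 8.17 lay within the GFP range of 8.13 to 8.29 (limma adjusted p = 0.461 and 0.36). The 3 probes read 1 gene and are not independent; the annotation ties the first 2 to the same RefSeq transcript and the last to another.

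CTSB, which encodes an endopeptidase that also trims dipeptides from the carboxyl end, had log2 values of 9.74, 9.74 and 9.88 in the GFP group and 10.04, 9.86 and 9.98 in the GRK3 group. GRK3 replicate 2 lay within the GFP range, and the difference was 0.17, with a 95% interval from -0.03 to 0.38 (limma adjusted p = 0.531), and with the values as scaled by the authors it was 0.11. CTSS encodes cathepsin S, which stays active at neutral pH and is known from antigen-presenting cells. Its probe was not detected above background on any array, with detection p-values of 0.547 to 0.99 and signals of 48.1 to 69.6, so no fold is given.

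CTSZ encodes cathepsin Z, also called X, a carboxypeptidase that removes residues singly. Its log2 values were 11.29, 11.31 and 11.24 in the GFP group and 11.11, 10.88 and 10.40 in the GRK3 group. The GFP arrays lay close together while the GRK3 arrays were spread, all below them, with replicate 3 the lowest. Group means were 11.28 ± 0.04 and 10.80 ± 0.36 (SD, n = 3 each). The difference of -0.49 ± 0.16 (SE) had a 95% interval from -0.84 to -0.14 and did not pass (limma adjusted p = 0.255), and without GRK3 replicate 3 it was -0.29 (limma adjusted p = 0.5205).

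CTSC encodes dipeptidyl peptidase I, which activates the granule proteases of leukocytes. Its brightest probe, ILMN_1792885, had log2 values of 12.61, 12.70 and 12.55 in the GFP group and 12.57, 12.66 and 12.27 in the GRK3 group. The value on GRK3 replicate 3 was the lowest, and the others lay within the GFP range. The differences were -0.12 at this probe and 0.0021 at ILMN_2242463, with 95% intervals from -0.37 to 0.14 and from -0.20 to 0.21 (limma adjusted p = 0.773 and 0.996). Without GRK3 replicate 3 the difference at the brightest probe was -0.0049, and without GRK3 replicate 2 it was -0.20. The remaining probe, ILMN_1689086, is tied to another RefSeq transcript of CTSC and was dim, with signals of 193 to 304. Its difference of 0.24 ± 0.16 (SE) rested on GRK3 replicate 1, at 7.98 against 7.23 to 7.55 on the other 5 arrays, and was 0.061 without that array (limma adjusted p = 0.627 with all arrays and 0.874 without it), against 0.40 without GRK3 replicate 2.

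Neither the aspartic nor the serine member passed. CTSD, the gene of the aspartic endopeptidase cathepsin D, had log2 values of 9.85, 9.97 and 9.56 in the GFP group and 9.92, 10.08 and 10.21 in the GRK3 group. GRK3 replicate 1 lay within the GFP range, whose lowest array was replicate 3. The difference was 0.28 ± 0.13 (SE), with a 95% interval from -0.0036 to 0.56 (limma adjusted p = 0.439), and without GFP replicate 3 it was 0.16 (limma adjusted p = 0.801). CTSA encodes the serine carboxypeptidase that also protects lysosomal galactosidase and neuraminidase. Its difference was 0.02, with a 95% interval from -0.19 to 0.24 and overlapping groups (limma adjusted p = 0.962).

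The inhibitor genes did not pass either. CSTB encodes cystatin B, also called stefin B, an inhibitor inside the cell. Its log2 values were 14.58, 14.66 and 14.59 in the GFP group and 14.53, 14.45 and 14.54 in the GRK3 group. The groups did not overlap, and the difference was -0.10, with a 95% interval from -0.29 to 0.09 (limma adjusted p = 0.732). It was -0.0145 with median scaling and -0.059 with the values as scaled by the authors. CST3 encodes cystatin C, the secreted inhibitor found in most body fluids. Its values were 13.26, 13.18 and 13.12 in the GFP group and 13.29, 13.16 and 13.14 in the GRK3 group, with a difference of 0.01 and a 95% interval from -0.19 to 0.21 (limma adjusted p = 0.981).

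Counted over the 14 tested member probes, the GRK3 arrays lay wholly above the GFP arrays at 1 (CTSH) and wholly below at 4 (CTSZ, CSTB and 2 of CTSL). Such separation held for 16.4% of all tested probes, 8.00% higher and 8.38% lower. As the members share targets and were picked with this comparison known, the count is a description. Within the GRK3 group, replicate 1 was the highest array at 9 of the 14 probes and replicate 2 the lowest at 8. Over all tested probes replicate 1 was the highest at 37.2% and replicate 2 the lowest at 30.9%.

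**Figure D2:**
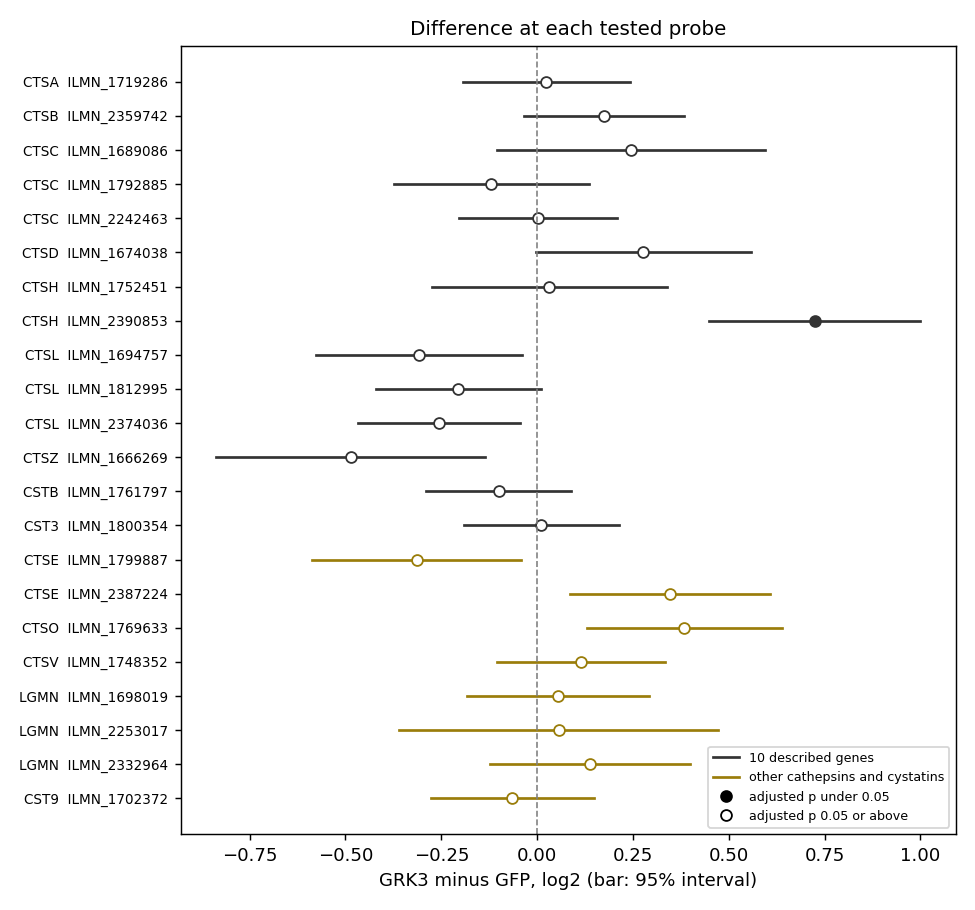
Difference between GRK3 and GFP cells at each tested probe of the 10 genes (dark) and of the other cathepsins and cystatins (ochre), with 95% intervals (x axis, log2). The filled point, CTSH at 0.72, is the 1 probe with an adjusted p under 0.05, and CTSZ at -0.49 has the lowest difference.

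The rest of the family was followed through a list of 20 other cathepsin, legumain and cystatin genes. Only 8 of their 26 probes, from 5 genes, passed the detection filter. With limma 0 of these 8 were higher or lower after adjustment, 3 had an unadjusted p under 0.05, against 1636 of all 14130. Their median difference was 0.09, and it was 0.032 without GFP replicate 2, 0.036 without GRK3 replicate 3, 0.039 without GFP replicate 3, 0.19 without GFP replicate 1 and 0.0035 with no detection filter. CTSO, which encodes the little-studied cathepsin O, had log2 values of 7.48, 7.70 and 7.87 in the GFP group and 7.97, 8.11 and 8.13 in the GRK3 group. The groups did not overlap, and the difference was 0.38 ± 0.11 (SE) (limma adjusted p = 0.213). CTSE, the gene of the endosomal aspartic protease cathepsin E, differed in sign between its probes, by 0.35 at ILMN_2387224 and by -0.31 at the dimmer ILMN_1799887 (limma adjusted p = 0.279 and 0.358). The latter lay near background, with signals of 100 to 144, and was detected on 3 GFP and 2 GRK3 arrays. The annotation ties these 2 probes to different RefSeq transcripts. The remaining CTSE probe, tied to the same transcript as ILMN_1799887, was not detected on any array. CTSV, the closest relative of CTSL, differed by 0.11, and CST9, a cystatin gene, by -0.06. LGMN encodes legumain, the asparaginyl endopeptidase that processes several cathepsins. Its 3 probes differed by 0.05, 0.06 and 0.14, and limma adjusted p-values for CTSV, CST9 and LGMN were 0.73 to 0.952. The LGMN probe at 0.06, ILMN_2253017, was dim and was detected on 1 GFP and 3 GRK3 arrays. The probes of CTSF, CTSG, CTSK, CTSW, CSTA and CST6 were not detected on any array, and CST7 was detected on 1. Those of CST1, CST2, CST4, CST5, CST8, CST9L, CST11 and CSTL1 were also not detected on any array.

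Beyond the proteases, 66 lysosomal genes with 90 probes were divided into hydrolases and their activators, membrane and proton pump proteins, and sorting factors and regulators. Of the 76 tested probes, 0 were higher and 0 were lower with limma. An unadjusted p under 0.05 was found at 8 of the 76, against 1636 of all 14130. Differences were positive at 28 of the 35 hydrolase and activator probes (80%), which read 28 genes, with a median of 0.10, where all tested probes were positive at 47.7% with a median of -0.01. Over all alternative settings this share was 72.5% to 85.7% and the median 0.06 to 0.14. The most positive hydrolase genes were IDUA (iduronidase) at 0.53 ± 0.16 (SE) and MANBA (beta-mannosidase) at 0.35 ± 0.19 (SE), with limma adjusted p-values of 0.209 and 0.543. IDUA had log2 values of 5.92, 6.02 and 5.83 in the GFP group and 6.06, 6.62 and 6.69 in the GRK3 group. Among the 16 alternatives it passed only without GRK3 replicate 1. Its probe lay near background, with signals of 108 to 166 and detection p-values of 0.019 to 0.042. The most negative were GM2A, the activator of ganglioside breakdown, at -0.18 and PLA2G15, the lysosomal phospholipase, at -0.18 (limma adjusted p = 0.53 and 0.497).

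Membrane and pump probes were positive at 17 of 30, with a median of 0.02 (0.0069 to 0.05 over all alternative settings). The tetraspanin gene CD63 stood at 0.29 and the pump subunit gene ATP6V1E1 at 0.17 (limma adjusted p = 0.333 and 0.53). The cystine transporter gene CTNS stood at -0.35 and the pump subunit gene ATP6V0A1 at -0.29 (limma adjusted p = 0.46 and 0.42). The CTNS value came from a dim probe, with signals of 120 to 167, and a brighter CTNS probe stood at -0.19. The remaining CTNS probe was not detected on any array. Sorting and regulator probes were positive at 4 of 11, with a median of -0.05 (-0.08 to -0.0012 over all alternative settings). The transcription factor gene MITF stood at 0.22 at its most positive probe, and GNPTG, a subunit of the enzyme that builds the mannose 6-phosphate tag, at 0.19. The adaptor gene GGA3 stood at -0.17 and TFE3 at -0.15, and limma adjusted p-values of these 4 were 0.474 to 0.691. A brighter MITF probe stood at -0.04 (limma adjusted p = 0.9185), and the remaining MITF probe was not detected on any array.

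**Figure D3:**
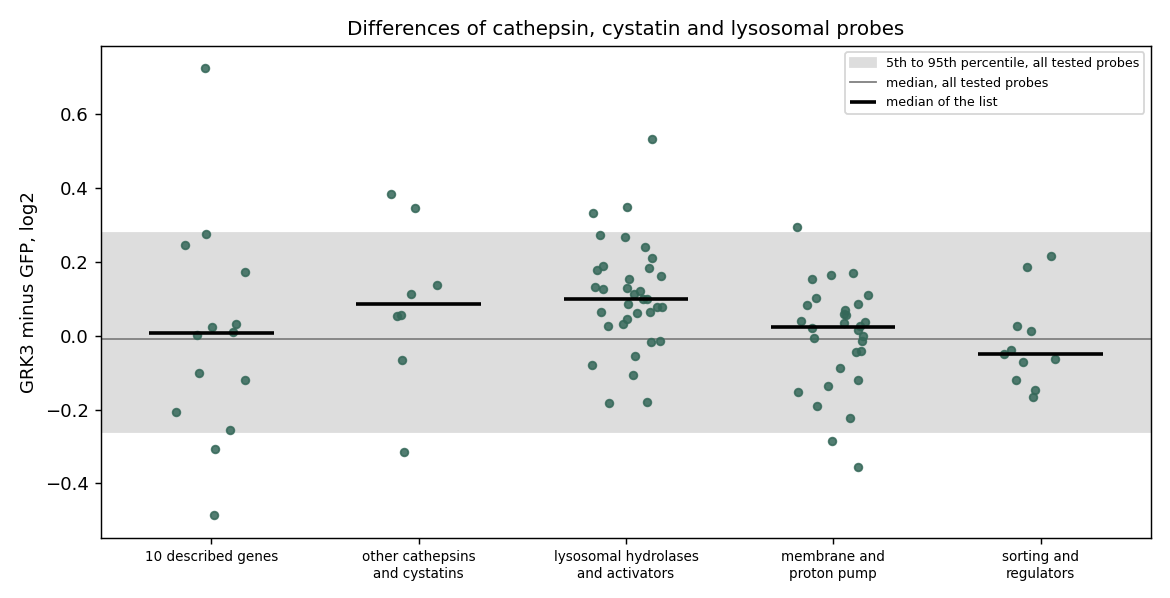
Differences between GRK3 and GFP cells (y axis, log2) at the tested probes of the 10 genes, the other cathepsins and cystatins, and the 3 lysosomal lists. Points are probes, black lines are list medians, and the grey band runs from -0.26 to 0.28, the 5th and 95th percentiles of all tested probes. The hydrolase list has its median at 0.10 and 28 of 35 probes above 0.

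**Figure D4:**
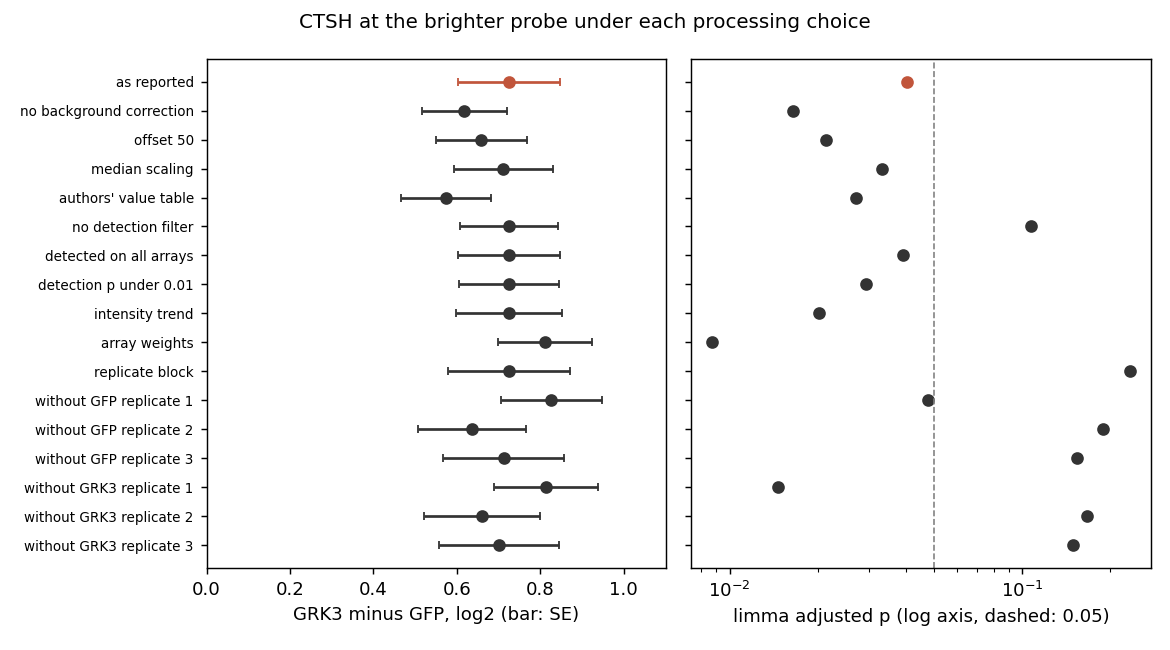
CTSH at probe ILMN_2390853 under each processing choice: the difference with its SE (left, log2) and the limma adjusted p (right, log axis, dashed line at 0.05). The difference lies between 0.57 and 0.83 in all 16 alternatives, while the adjusted p runs from 0.00873 to 0.233 and is under 0.05 in 10 of them.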

How the data were processed

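Total RNA of 6 PC3 samples, 3 per group by the labels' titles, was measured with a single biotin label. The authors deposited an intensity per probe and array, not normalized per the file headers and all above 0, with a detection p-value per probe; the software was not stated. The authors' value table holds intensity on a linear scale, which equals the first table times 1 factor per array (0.931 to 1.10), with column medians of 131.6 to 140.7. By this match its signals have the scale and direction of the first table and are not centred.

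Values were processed in R 4.3.3 with limma 3.58.1, by its function neqc (offset 16). Probes detected at p under 0.05 on at least 3 arrays were tested with lmFit and eBayes, with Benjamini-Hochberg adjustment over all 14130. Of the probes, 21834 have 1 symbol, 2692 none and 0 several. Precision is limited by the number of arrays. The fit was tested on 5 simulated data sets of 14130 probes, in which it recovered 40.4% of probes changed by 0.5 and 87.6% of those changed by 1 (log2).

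The members, lists and tests were chosen with earlier results of these data known. By rule, every member probe and every tested probe of other family genes is named, of each lysosomal list the probes past the threshold and the 2 most extreme genes per direction, and the 5 probes nearest to CTSH. Of 76 lysosomal genes listed, 10 had no probe named here. Alternatives tried were each array left out in turn, the replicate number as a block, array weights, a variance trend with intensity, 3 other detection filters, the authors' value table, median scaling, an offset of 50 and no background correction.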

Additional observations from a re-analysis of the deposited data

How the results depend on the processing

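The number of all tested probes past the threshold was 81. It was 134 with no background correction, 122 with an offset of 50 and 136 with an intensity trend. Array weights gave 239 and no detection filter 23. Without GRK3 replicate 1 it was 190, and without each other array in turn it was 23 to 39. With the values as scaled by the authors 57 were higher and 55 lower, against 53 and 28. The replicate number as a block gave 11 calls over all probes and 0 among the members, where CTSH at ILMN_2390853 had a limma adjusted p of 0.233. Deviations of same-numbered arrays correlated at -0.407, 0.178 and -0.415. With so few arrays per group, these correlations cannot decide whether same-numbered arrays were handled together. The labels give only the replicate number. The count of member probes, 1, was 0 with no detection filter (CTSH adjusted p = 0.107, with more probes tested) and 0 to 1 with 1 array left out. Of the lysosomal probes 0 to 1 passed with 1 array left out, the 1 being IDUA without GRK3 replicate 1. The other cathepsins and cystatins had 0 calls in all 16 alternatives.

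Differences near 0 changed sign. CTSA was -0.011 with the authors' table and -0.0086 with array weights, CTSC at ILMN_2242463 was -0.016 and -0.015, and CTSH at ILMN_1752451 was -0.026 with array weights. With 1 array left out CTSA ran from -0.038 to 0.094, this CTSC probe from -0.051 to 0.033, this CTSH probe from -0.099 to 0.161 and CST3 from -0.034 to 0.050. The other 10 tested member probes kept their sign in all 16 alternatives. The cause of these changes was not tested. CTSS was not detected and the second CTSH probe lay near background, which limits what can be said of them.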
